A study of Mus musculus with 9 samples.

Results

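Cathepsins are the main proteases of the lysosome, and 9 of their genes were described in splenic myeloid-derived suppressor cells (MDSCs), the immature myeloid cells that accumulate in tumour-bearing mice. The genes were chosen by symbol (Ctsa, Ctsb, Ctsc, Ctsd, Ctse, Ctsh, Ctsl, Ctss and Ctsz), and all 9 were found among the 23284 gene symbols of each sample. RNA-sequencing had been carried out on 9 samples in 3 groups of 3, each from the spleens of mice collected 3 weeks after inoculation with cells of a spindle cell tumour (SCT) line, which came from a chemically induced skin tumour of a p16-knockout mouse. PMN-MDSCs, the neutrophil-like subset, and Mo-MDSCs, the monocyte-like subset, came from C57BL/6J mice wild type (WT) for p16 and p21, and a second group of Mo-MDSCs came from C57BL/6 p16/p21 double-knockout (DKO) mice. The sample labels give the age of all mice as 3 weeks, while the methods describe older animals at inoculation and give 3 weeks as the time of collection. The cells were enriched on magnetic columns, as Ly6G+ cells for PMN-MDSCs and Ly6G-Gr-1+ cells for Mo-MDSCs, so each sample was a bulk population. The whole mouse carried the DKO alleles, and the tumour cells lacked p16 in all groups. PMN-MDSCs of DKO mice were not analysed here.

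Cathepsins are made as inactive precursors, sorted to the acidic lysosome largely by the mannose 6-phosphate route, and activated there by cleavage. They fall into aspartic (D, E), cysteine (B, C, H, L, S, Z) and serine (A) proteases, and cystatins and stefins hold the cysteine cathepsins in check. In myeloid cells they degrade engulfed protein, trim the MHC class II invariant chain and, through cathepsin C, activate the serine proteases of granules.

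The transcription factor TFEB and its relatives bind an E-box in the promoters of many lysosomal genes, and the E-boxes of the cathepsin promoters are shown because the members differed in this feature. Promoter sequences from 250 bases before to 50 bases after a start site were taken from RefSeq (GRCm38.p6) and were found for 6 of the 9 members, with 7 start sites, since Ctsa had a pair of them. Ctsb, Ctse and Ctsh had no entry. The E-box CACGTG, which reads alike on both strands, was in 3 of the 7 member promoters and in 7.15% of the 32851 promoters searched. The longer TCACGTG, searched on both strands and containing the E-box, was in 2 of the 7 and in 3.77% of all. The E-boxes are printed below in capitals, in windows of 30 bases 5′ to 3′ on the strand of the gene. A stretch of Ctss, which held no match, follows for comparison and covers the 250 bases before its start.
Ctsd, 245 bases before the start, chr7:142388048-142388077, minus strand: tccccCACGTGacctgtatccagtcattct
Ctsd, 98 bases before the start, chr7:142387908-142387937, minus strand: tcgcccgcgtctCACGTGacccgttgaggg
Ctsa, second start, 12 bases before it and at base 6 after it, chr2:164833758-164833787, plus strand: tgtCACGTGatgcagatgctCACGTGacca
Ctsl, 236 bases before the start, chr13:64370739-64370768, minus strand: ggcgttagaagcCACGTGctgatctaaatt
Ctss, no match, chr3:95526536-95526785, plus strand: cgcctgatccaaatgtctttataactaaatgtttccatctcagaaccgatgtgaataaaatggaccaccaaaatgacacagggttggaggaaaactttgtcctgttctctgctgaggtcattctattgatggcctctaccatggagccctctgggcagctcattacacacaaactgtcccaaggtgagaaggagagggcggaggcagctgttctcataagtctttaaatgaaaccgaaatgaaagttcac
Ctsd and the second start of Ctsa each held 2 E-boxes, all within the longer motif, and Ctsl held a single one outside it. The promoters of Ctsc, Ctss and Ctsz and the first start of Ctsa held none. Distances are from the RefSeq starts, which differ from the outermost starts of the annotation described next. The windows of Ctsa and Ctsl and the Ctsd window at 98 bases lay inside the gene spans of that annotation. Only the Ctsd window at 245 bases lay before its gene span. A match is a description of these letters, and no binding was measured here.

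In the annotation of the same build (GENCODE M21), Ctsd lay at chr7:142375911-142388038 on the minus strand and Ctse at chr1:131638306-131675505 on the plus strand. Ctsb lay at chr14:63122462-63145923, Ctsc at chr7:88278085-88310888, Ctsh at chr9:90054152-90076089 and Ctss at chr3:95526786-95556403, all on the plus strand. Ctsl lay at chr13:64359337-64370890 and Ctsz at chr2:174427493-174439039 on the minus strand, and Ctsa at chr2:164832873-164841032 on the plus strand. Exons of Ctsd shared 808 bases with Gm49369 on its own strand, and those of Ctsl shared 395 bases with a processed pseudogene, Gm49230, on its own strand and 1742 bases with the antisense gene Gm47123. Ctsb shared 774 exon bases with Fdft1, and Ctsa 324 with Neurl2 and 495 with Pltp, on the opposite strand. How the authors divided reads between such genes is not given in the sources used here, so the levels of Ctsd, Ctsl, Ctsb and Ctsa are uncertain to that degree.

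Values are FPKM, by name fragments scaled to transcript length and to the mapped fragments of the library, so that levels can be compared between genes. How the libraries were in fact scaled to each other is not given in the sources used here. The depth in reads is unknown. The summed FPKM of a sample ranged from 494252 to 916642 and was highest in the 3 PMN-MDSC samples, while 11299 to 11418 genes reached 1 FPKM in each sample. PMN-MDSCs and WT Mo-MDSCs differed in the defining genes of the subsets. The neutrophil receptor Cxcr2 was at 713 ± 147 and 11.8 ± 6.09 FPKM (mean ± SD, n = 3 each) and the monocyte receptor Ccr2 at 2.41 ± 0.0800 and 326 ± 41.4 FPKM. Genes of splenic macrophages, B cells and red cells were read in all groups, and their sums are given below. Cdkn1a (p21) was at 8.18, 6.46 and 8.04 FPKM in Mo-MDSCs of WT mice and at 5.55, 8.52 and 6.00 FPKM in those of DKO mice, and Cdkn2a (p16) was under 1 FPKM in all 6. These groups overlapped, and values per gene symbol do not show whether reads fell in the deleted exons, so the genotype labels could not be checked with them.

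All 9 cathepsins were expressed in all samples, between 39.5 and 1739 FPKM, and they kept much the same order in the 3 groups apart from the top 3. In PMN-MDSCs Ctsd was the most abundant, at 1594 ± 131 FPKM, followed by Ctsb at 1218 ± 73.9 and Ctss at 860 ± 27.9 FPKM (SD, n = 3), and no 2 of these overlapped. In WT Mo-MDSCs the order was Ctss at 1452 ± 130, Ctsb at 914 ± 60.8 and Ctsd at 770 ± 42.6 FPKM, again without overlap. In DKO Mo-MDSCs Ctss, Ctsb and Ctsd were at 1212 ± 145, 1013 ± 147 and 971 ± 89.2 FPKM, and each overlapped with its neighbour in the order. Below them came Ctsz and Ctsc, which overlapped in every group, then Ctsh, Ctsa, and last Ctse and Ctsl, which again overlapped in every group. By rank among all genes of a sample, Ctsd was between 50 and 54 in PMN-MDSCs, between 119 and 129 in Mo-MDSCs of WT mice and between 71 and 81 in those of DKO mice. Ctss ranked between 127 and 152, between 36 and 49, and between 43 and 54 in the same groups, so that a different cathepsin headed each WT subset.

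**Figure D1:**
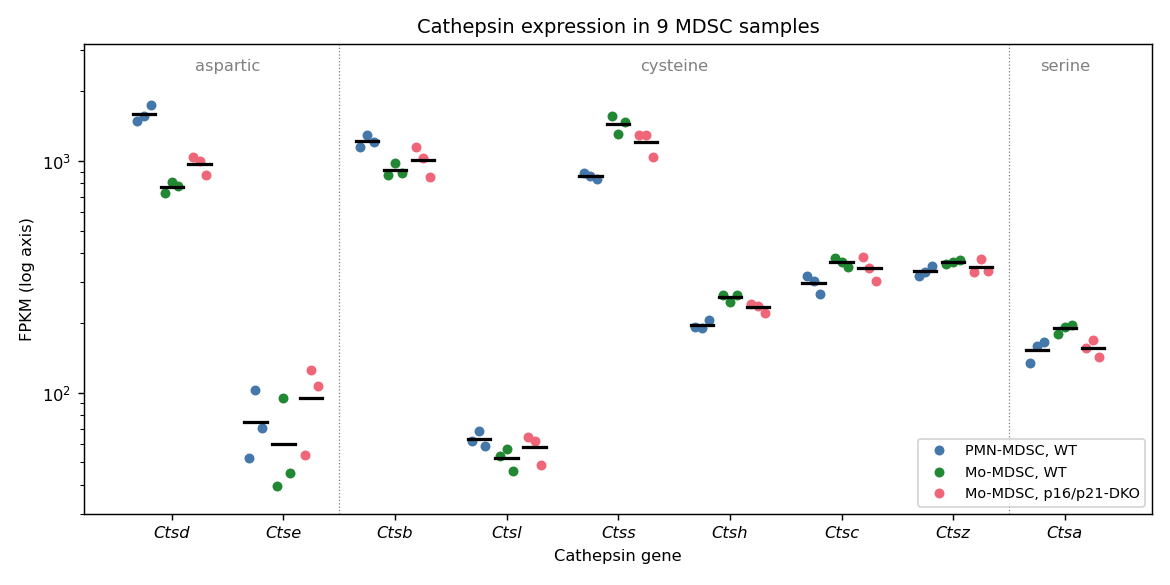
FPKM (log axis) of the 9 cathepsin genes, ordered by protease class, in each of the 3 samples of each group; points are samples and black lines the group means. Ctsd is the highest in PMN-MDSCs (1594 FPKM) and Ctss in WT Mo-MDSCs (1452 FPKM), while the replicates of Ctse spread widely in all 3 groups.

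The first comparison asked how the subsets differed in WT mice. Mo-MDSCs had less Ctsd and Ctsb and more Ctss, Ctsh, Ctsc and Ctsa than PMN-MDSCs. Of the 9 members, which all passed the filter of 1 FPKM in 3 of 6 samples, 4 were higher and 2 lower in Mo-MDSCs at an adjusted p below 0.05 (limma on log2(FPKM + 0.1), Benjamini-Hochberg over 11491 genes). Among all genes tested 18.5% were called higher and 20.6% lower, so calls were common in this comparison. The median log2 fold change of the members was 0.14, and that of all genes 0.01. The groups did not overlap for 5 members higher in Mo-MDSCs (background 26.2%) and 3 lower (background 26.4%). The labels do not say whether the replicates came from separate animals, so the p-values measure the spread between these samples, which may be in part technical, and in bulk samples fewer cells of a type cannot be told apart from less RNA per cell.

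Of the aspartic proteases, cathepsin D digests a wide range of engulfed and cellular proteins. Ctsd was at 1485, 1559 and 1739 FPKM in PMN-MDSC replicates 1 to 3 and at 725, 809 and 776 FPKM in WT Mo-MDSCs. All PMN-MDSC samples lay far above all Mo-MDSC samples. Ctsd was 2.07-fold lower in Mo-MDSCs, on the log2 scale a difference of -1.05 (SE 0.10, adjusted p = 0.000301, limma with Benjamini-Hochberg adjustment), the largest difference among the members. Its call was kept in 19 of 19 alternative settings, and within replicates 2 and 3, which belong to a later series of library numbers than replicate 1, the log2 fold change was -1.05 (adjusted p = 0.00958, limma).

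Ctse encodes cathepsin E, an endosomal aspartic protease that is also made by erythroid cells. It was at 52.4, 102 and 70.5 FPKM in PMN-MDSCs and at 39.5, 95.1 and 45.2 FPKM in WT Mo-MDSCs. The groups overlapped, and replicate 2 was the highest in both. The log2 fold change of -0.38 (95% interval -1.25 to 0.48, adjusted p = 0.445, limma) was not called. Same-numbered samples of the subsets deviated together across genes, and when the replicate number entered the fit as a block Ctse was called lower in Mo-MDSCs (adjusted p = 0.0193, limma). Scaled to the same total in each sample (TPM, transcripts per unit total), the log2 fold change of Ctse was 0.06, or -0.39 relative to the median of all genes.

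Among the cysteine proteases, cathepsin S trims the invariant chain in antigen-presenting cells and stays active at neutral pH. Ctss was at 888, 860 and 832 FPKM in PMN-MDSCs and at 1569, 1312 and 1474 FPKM in WT Mo-MDSCs. All Mo-MDSC samples exceeded all PMN-MDSC samples. The difference was 1.68-fold, a log2 fold change of 0.75 (SE 0.10, adjusted p = 0.00138, limma), and it was called in 19 of 19 alternative settings. Within replicates 2 and 3 the log2 fold change of Ctss was 0.72 (adjusted p = 0.0242, limma).

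Cathepsin H is an aminopeptidase. Ctsh was at 192, 191 and 205 FPKM in PMN-MDSCs and at 263, 246 and 265 FPKM in WT Mo-MDSCs. The groups were well apart, and the log2 fold change was 0.40 (SE 0.07, adjusted p = 0.00535, limma). It was called in 18 of 19 alternative settings, the exception being replicates 2 and 3 alone (adjusted p = 0.0618).

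Cathepsin C, or dipeptidyl peptidase I, activates granule serine proteases. Ctsc was at 320, 303 and 266 FPKM in PMN-MDSCs and at 383, 367 and 349 FPKM in WT Mo-MDSCs. The groups did not overlap, and the log2 fold change was 0.31 (SE 0.10, adjusted p = 0.0386, limma). The Ctsc call was lost (adjusted p from 0.0699 to 0.121) when PMN-MDSC replicate 2 or 3 or any Mo-MDSC replicate was left out, and was kept without PMN-MDSC replicate 1 (adjusted p = 0.0344).

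Cathepsin A, a serine carboxypeptidase, also protects lysosomal β-galactosidase and neuraminidase. Ctsa was at 134, 159 and 165 FPKM in PMN-MDSCs and at 179, 193 and 196 FPKM in WT Mo-MDSCs. All Mo-MDSC samples were the higher ones, and the log2 fold change was 0.31 (SE 0.10, adjusted p = 0.0422, limma). Ctsa lost its call (adjusted p from 0.0633 to 0.126) when PMN-MDSC replicate 1 or 2 or any Mo-MDSC replicate was left out, and kept it without PMN-MDSC replicate 3 (adjusted p = 0.0410).

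Cathepsin B acts as an endopeptidase and a carboxydipeptidase. Ctsb was at 1149, 1296 and 1207 FPKM in PMN-MDSCs and at 866, 982 and 892 FPKM in WT Mo-MDSCs. The PMN-MDSC samples were all higher. The log2 fold change of Ctsb in Mo-MDSCs was -0.41 (SE 0.10, adjusted p = 0.0145, limma), but as TPM it was 0.03, a value that is -0.42 relative to the median of all genes, which that scaling moved to 0.45. The Ctsb call was also lost without PMN-MDSC replicate 2, Mo-MDSC replicate 1 or Mo-MDSC replicate 3 (adjusted p = 0.0528, 0.0660 and 0.0576).

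Cathepsin L is an endopeptidase of many cell types, including macrophages. Ctsl was at 62.1, 68.3 and 58.9 FPKM in PMN-MDSCs and at 53.5, 57.3 and 45.7 FPKM in WT Mo-MDSCs. The groups were separate but close. The log2 fold change of -0.28 (SE 0.11, adjusted p = 0.0759, limma) was not called, and with the replicate block Ctsl was called (adjusted p = 0.00480), whereas as TPM its log2 fold change was 0.16, or -0.29 relative to the median of all genes. With the block the count of members called lower was thus 4, Ctsd, Ctsb, Ctsl and Ctse, and the count called higher stayed at 4.

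Ctsz encodes cathepsin Z, a carboxypeptidase that can also be secreted. It was at 318, 333 and 353 FPKM in PMN-MDSCs and at 360, 368 and 374 FPKM in WT Mo-MDSCs. The samples did not overlap, but the gap was small. The log2 fold change of Ctsz was 0.14 (95% interval -0.05 to 0.32, adjusted p = 0.202, limma), the smallest of the members in size. The value depended on the scaling. Ctsz was called higher in Mo-MDSCs as TPM, at 0.58 (adjusted p = 0.00238, limma), which was 0.13 relative to the median of all genes, and after quantile normalization, at 0.57 (adjusted p = 0.00117, limma).

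**Figure D2:**
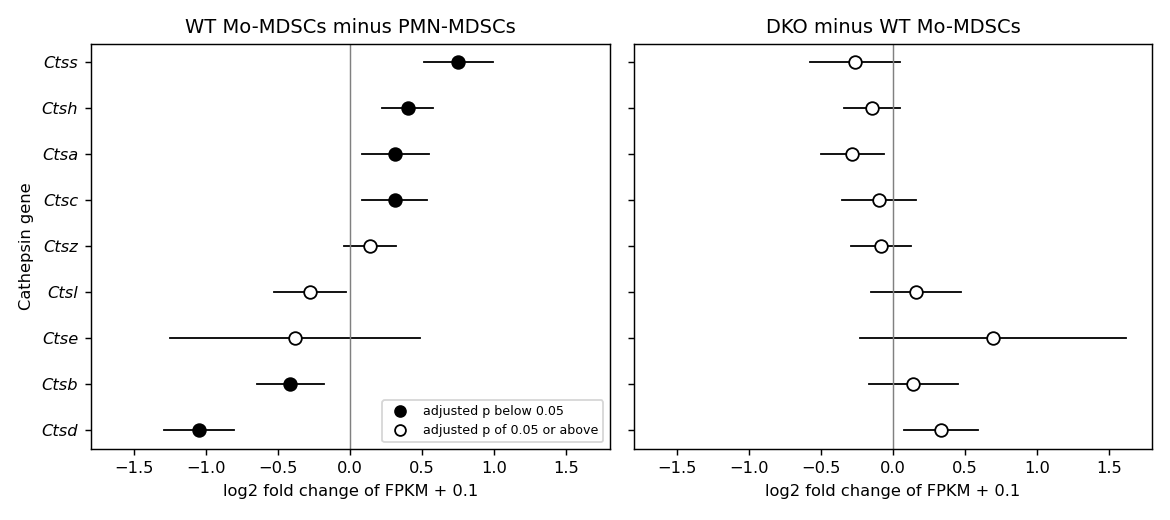
Log2 fold change of FPKM + 0.1 for each cathepsin in WT Mo-MDSCs against PMN-MDSCs (left) and in DKO against WT Mo-MDSCs (right), with 95% intervals from limma, 3 samples a group; filled points have an adjusted p below 0.05. On the left Ctsd is at -1.05 and Ctss at 0.75, with 6 members called, and on the right no member is called.

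The second comparison asked how Mo-MDSCs differed between genotypes. It shares the WT Mo-MDSC samples with the first, so the values are given side by side and no likeness between the comparisons was calculated. None of the 9 members was called between DKO and WT Mo-MDSCs (limma, Benjamini-Hochberg over 11451 genes), and none was called by a linear model without variance moderation. In all, 0.166% of genes were called higher and 0.0873% lower, so few calls were made at all. At an unadjusted p below 0.05 there were 2 members, Ctsd, which was higher in DKO (background 5.27%), and Ctsa, which was lower (background 9.74%). The groups did not overlap for 1 member higher in DKO, Ctsd (background 7.96%), and for 3 lower, Ctsa, Ctsh and Ctss (background 12.9%). The median log2 fold change of the members was -0.08 and that of all genes -0.02.

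Ctsd was at 1038, 1004 and 870 FPKM in DKO Mo-MDSCs, against 725 to 809 FPKM in WT Mo-MDSCs. The DKO samples lay above all WT samples and below all PMN-MDSC samples. The log2 fold change was 0.33 (95% interval 0.07 to 0.59, adjusted p = 0.247, limma), and within replicates 2 and 3 it was 0.24.

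Ctsb was at 1149, 1034 and 857 FPKM in DKO Mo-MDSCs, against 866 to 982 FPKM in WT. Its groups overlapped, with a log2 fold change of 0.14 (95% interval -0.17 to 0.45, limma). Ctsl, at 64.5, 62.1 and 48.6 FPKM in DKO, likewise overlapped with WT and had a log2 fold change of 0.16 (95% interval -0.15 to 0.47). For each of Ctsd, Ctsb and Ctsl replicate 3 was the lowest DKO sample, as it was for Ctss, Ctsa, Ctsh and Ctsc. The same sample had the lowest summed FPKM of all genes (494252).

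Ctss was at 1292, 1298 and 1045 FPKM in DKO Mo-MDSCs, against 1312 to 1569 FPKM in WT. The highest DKO sample was just under the lowest WT sample. The log2 fold change of Ctss was -0.26 (95% interval -0.57 to 0.05, adjusted p = 0.389, limma).

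Ctsa was at 156, 169 and 142 FPKM in DKO, below the 179 to 196 FPKM of WT Mo-MDSCs and within the span of 134 to 165 FPKM of PMN-MDSCs for 2 of the 3 samples. Its log2 fold change was -0.28 (95% interval -0.50 to -0.06, adjusted p = 0.246, limma). Ctsh, at 242, 237 and 221 FPKM in DKO, was also below all WT samples, with a log2 fold change of -0.15 (95% interval -0.34 to 0.05). As TPM the Ctsh value was 0.01, and -0.13 relative to the median of all genes, which that scaling moved to 0.14.

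Ctsc was at 384, 346 and 302 FPKM and Ctsz at 333, 377 and 334 FPKM in DKO Mo-MDSCs. Both overlapped with WT. Their log2 fold changes were -0.10 (95% interval -0.35 to 0.16) and -0.08 (95% interval -0.29 to 0.13), and both signs turned as TPM (0.06 and 0.08). Ctse, at 54.0, 125 and 107 FPKM, had the largest log2 fold change of the members between genotypes, 0.69, but also the widest interval, -0.23 to 1.61 (adjusted p = 0.444, limma), and DKO and WT overlapped.

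A share within a sample does not depend on how samples are scaled to each other, so the make-up of the cathepsin mRNA was also calculated. The 9 genes summed to 4790 ± 163 FPKM in PMN-MDSCs, 4429 ± 10.3 in WT and 4430 ± 438 in DKO Mo-MDSCs (SD, n = 3). Ctsd made up 32.3%, 32.0% and 35.5% of that sum in PMN-MDSCs, 16.3%, 18.3% and 17.6% in Mo-MDSCs of WT mice and 22.0%, 21.6% and 22.2% in those of DKO mice. No 2 groups overlapped in the share of Ctsd, and the DKO samples lay between the WT subsets.

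Ctss showed the opposite order, with 19.3%, 17.7% and 17.0% in PMN-MDSCs, 35.4%, 29.6% and 33.4% in Mo-MDSCs of WT mice and 27.4%, 27.9% and 26.6% in those of DKO mice. Again no groups overlapped. The ratio of Ctss to Ctsd, a pair chosen after their values were seen, was 0.598, 0.552 and 0.479 in PMN-MDSCs, 2.16, 1.62 and 1.90 in Mo-MDSCs of WT mice and 1.24, 1.29 and 1.20 in those of DKO mice. Ctss was thus the more abundant of the pair in all 6 Mo-MDSC samples and the less abundant in all 3 PMN-MDSC samples. The smallest p that an exact permutation test of 3 against 3 samples can give is 0.1, so these shares and ratios were not tested.

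The remaining shares differed less. Ctsb held 25.4% ± 1.05 in PMN-MDSCs, 20.6% ± 1.38 in WT and 22.8% ± 1.37 in DKO Mo-MDSCs, and the last 2 groups overlapped. Ctsz, Ctsc, Ctsh and Ctsa held 6.98%, 6.20%, 4.09% and 3.19% on average in PMN-MDSCs and 8.30%, 8.27%, 5.83% and 4.28% in WT Mo-MDSCs. Ctse and Ctsl stayed under 3% in all samples.

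**Figure D3:**
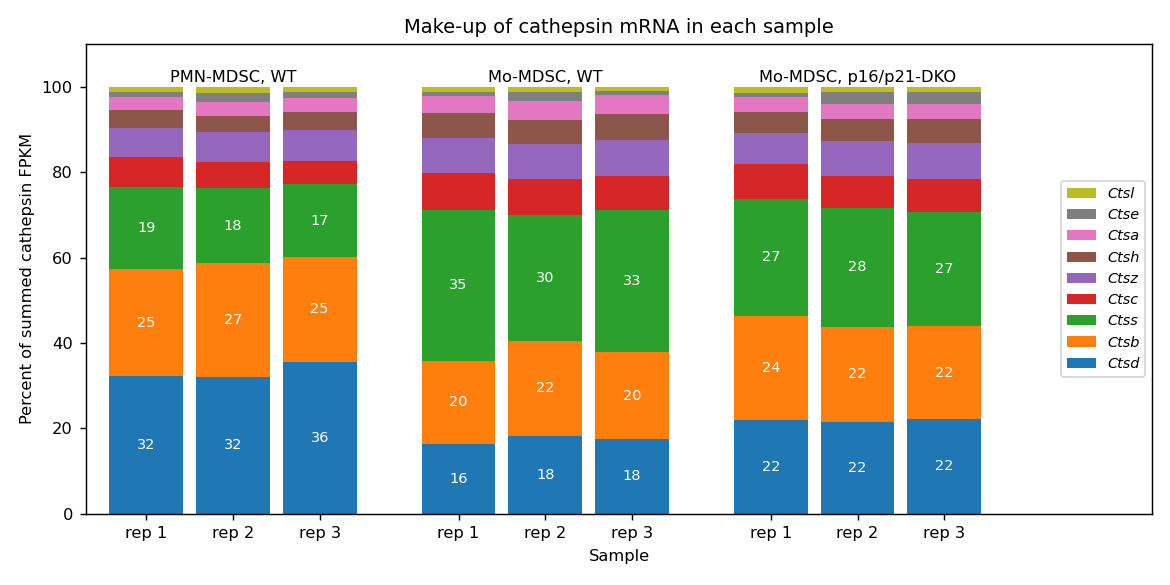
Percent of the summed FPKM of the 9 cathepsins taken by each gene, as stacked bars, 1 bar a sample and 3 samples a group; printed values are those of Ctsd, Ctsb and Ctss. Ctsd takes about a like share in the samples of a group, on average 33.3% for PMN-MDSCs, 17.4% for the WT and 21.9% for the DKO Mo-MDSCs.

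Some members moved in part with markers of other cells. Of 10 genes listed as markers of red-pulp or tissue macrophages, 9 were in the files, none of them at 0. Their summed level was 8524 to 9420 FPKM in PMN-MDSCs, 5299 to 6339 in Mo-MDSCs of WT mice and 6688 to 9678 in those of DKO mice. As with Ctsd, the WT Mo-MDSC samples were the lowest. Within DKO replicate 1 was highest and replicate 3 lowest, as with Ctsd, Ctsb and Ctsl, and also with Ctsc and Ctsh. Ctsl kept the order of the markers in all 3 groups, and Ctsd did not. In PMN-MDSCs replicate 3 was lowest in markers (8524 FPKM) and highest in Ctsd (1739 FPKM). In WT Mo-MDSCs replicate 3 was again lowest in markers (5299 FPKM), but replicate 1 was lowest in Ctsd (725 FPKM) and Ctsb (866 FPKM). Of these 9 markers 8 were called lower in the WT Mo-MDSCs (limma), with log2 fold changes of -0.76 for the iron exporter Slc40a1 and -0.71 for the complement genes C1qc and C1qb. These are values on the deposited scale, on which the summed FPKM of all genes was also highest in PMN-MDSCs. Relative to that sum, the macrophage marker sums of PMN-MDSCs and WT Mo-MDSCs overlapped. The haem oxygenase gene Hmox1, at 1257 ± 13.2 FPKM in WT and 2636 ± 349 in DKO Mo-MDSCs, was the 1 marker called higher in DKO (log2 fold change 1.06, adjusted p = 0.0299, limma), and it lost that call when any sample other than DKO replicate 3 was left out (adjusted p from 0.0654 to 0.202). The part of macrophages in the levels of Ctsd, Ctsb and Ctsl was not tested.

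Of 8 erythroid markers 6 were in the files, and they summed to 1344, 3063 and 1837 FPKM in PMN-MDSCs, 1288, 3002 and 1736 in Mo-MDSCs of WT mice and 1566, 2688 and 2049 in those of DKO mice. Within each group the order of the replicates was that of Ctse, with replicate 2 highest and replicate 1 lowest. The part of erythroid cells in the level of Ctse was not tested.

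Of 10 neutrophil markers 9 were in the files, and Ly6g was not analysed here. Their sum was 99108 to 232451 FPKM in PMN-MDSCs, 17845 to 61815 for WT and 7017 to 17074 for DKO Mo-MDSCs. The 7 monocyte markers summed to 969 to 1019, 2268 to 2588 and 1802 to 1999 FPKM in the same groups. No 2 groups overlapped in either of these sums, and the same held for Ctss. Most of the neutrophil sum came from S100a8 and S100a9. Most of the monocyte sum of PMN-MDSCs came from Csf1r, which overlapped in all groups at 753 ± 83.7, 797 ± 52.0 and 826 ± 83.0 FPKM. The 5 measured of 6 B-cell markers summed to 1434 to 1635, 1020 to 1148 and 1092 to 1373 FPKM. T or NK cell markers summed to at most 12.6 FPKM in a sample and dendritic cell markers to at most 46.7. The part of these cells in the levels of the cathepsins was not tested.

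**Figure D4:**
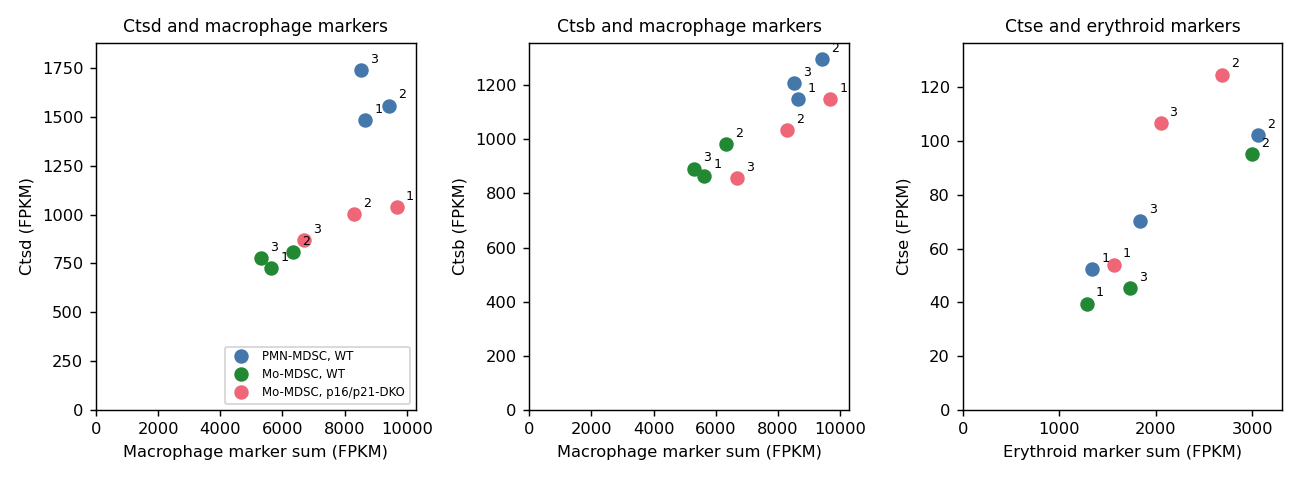
Ctsd (left) and Ctsb (middle) against the summed FPKM of macrophage markers, and Ctse (right) against that of erythroid markers, in FPKM on linear axes from 0; each point is a sample, coloured by group and numbered by replicate. WT Mo-MDSCs are lowest in macrophage markers (5299 to 6339 FPKM), and replicate 2 is highest in both Ctse and erythroid markers in each group.

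To see which genes had a profile most like each cathepsin, the root-mean-square difference of mean-centred log2 values over the 9 samples was calculated against the other genes among 11726. For Ctsd the nearest were Fcgr4 (0.10) and Pla2g7 (0.11), which encode an IgG receptor and a secreted phospholipase. For Ctsb they were Itm2b (0.06) and Lgmn (0.06), and Lgmn encodes the lysosomal protease legumain. Ctss was nearest to Zfp59 (0.07) and the interferon-gamma receptor gene Ifngr1 (0.08), and Ctsh to Dstyk and Rbbp8 (both 0.04).

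The nearest genes of Ctsa were Rpl36al and Uqcrc1, those of Ctsc Rab12 and Gmpr2, those of Ctsl Ppap2a and Plod1, and those of Ctsz Hn1 and Ctdp1. Ctse was nearest to Lmna (0.12) and Col5a1 (0.13). Among the members, Ctsb and Ctsl were nearest to each other (0.10), as were Ctsa and Ctsz (0.11) and Ctsc and Ctsh (0.12). The nearest member to Ctsd was Ctsb at 0.28. Ctsz itself varied by only 0.08 over the samples on the same measure, less than its distance to Ctsa. These are descriptions over 9 samples with 3 groups, and many genes share a difference between subsets.

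Other genes of the lysosome were taken from lists. In WT Mo-MDSCs against PMN-MDSCs, 19 genes of all lists were called higher and 29 lower, and in DKO against WT none was called (limma). Over all genes tested 18.5% were called higher and 20.6% lower between subsets, and 0.166% and 0.0873% between genotypes. Between subsets these shares were 50.7% and 8.27% as TPM, 21.8% and 17.9% after quantile normalization, and 27.6% and 29.7% with the replicate block. The counts of the lists below stand beside these shares. Of 5 other cathepsin genes, 3 passed the filter, and none of them was called in either comparison. Ctso was at 22.5 ± 3.77, 24.5 ± 3.38 and 26.3 ± 5.10 FPKM in PMN-MDSCs, WT and DKO Mo-MDSCs. Ctsf was at 9.75 ± 2.60, 8.13 ± 2.87 and 9.03 ± 0.777 FPKM, and Ctsw near 1 FPKM in all groups. Ctsg and Ctsk, of neutrophil granules and osteoclasts, did not pass.

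Among 34 lysosomal hydrolases and activators 6 were higher and 5 lower in WT Mo-MDSCs, with a median log2 fold change of -0.06, and with the replicate block 11 and 8 were. As TPM 18 were higher and none lower. The 6 and 5 were near or under the shares of all genes, and the 18 were near that of all genes as TPM. The largest differences were in Gusb (β-glucuronidase, 0.92), Npc2 (a cholesterol carrier, 0.91) and Ifi30 (a thiol reductase of antigen processing, 0.75), with adjusted p-values of 7.86e-05, 0.000245 and 0.00314 (limma). All of these 3 were higher in Mo-MDSCs, as Ctss was. Of 12 membrane proteins 4 were higher and 2 lower, as TPM 9 and 1 were, and after quantile normalization 6 and 1. The Slc11a1 call was lost under both of these scalings. Cd63 was at 83.3 ± 28.6 and 32.4 ± 14.7 FPKM and the metal transporter gene Slc11a1 at 264 ± 12.0 and 185 ± 9.84 FPKM in PMN-MDSCs and WT Mo-MDSCs, with log2 fold changes of -1.40 and -0.51, and the channel gene Mcoln1 was higher in Mo-MDSCs (0.44). The Cd63 call was lost without PMN-MDSC replicate 3 or WT Mo-MDSC replicate 1 (adjusted p = 0.0550 and 0.0564, limma), and that of Mcoln1 without PMN-MDSC replicate 1 or 3 or WT Mo-MDSC replicate 2 or 3 (adjusted p from 0.0626 to 0.0729, limma).

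Of 17 subunits of the V-ATPase, the proton pump that acidifies lysosomes, 16 were tested, and 9 were lower and none higher in WT Mo-MDSCs. Their median log2 fold change was -0.41, against 0.01 for all genes, and with the replicate block 13 were lower. As TPM 3 subunits were called higher and 2 lower, and their median of 0.03 was -0.42 relative to that of all genes. After quantile normalization 1 was higher and 5 were lower, with a median of -0.07, or -0.13 relative to all genes. Atp6v1g1 was at 261 ± 53.1 FPKM in PMN-MDSCs against 95.5 ± 10.1 in WT Mo-MDSCs (log2 fold change -1.43), and Atp6v0a1 (-0.85) and Atp6v1e1 (-0.64) followed. Of 12 sorting genes 4 were higher and 4 lower, and as TPM 6 were higher and none lower. The higher ones included Gnptab (0.85) and Nagpa (0.69), both enzymes that make the mannose 6-phosphate tag, and the lower ones Igf2r (-0.65), a receptor for it.

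The 4 MiT/TFE factors divided. Tfeb was at 55.7, 61.6 and 66.1 FPKM in PMN-MDSCs, 33.7, 33.3 and 35.4 in Mo-MDSCs of WT mice and 32.1, 34.8 and 32.1 in those of DKO mice. Between the WT subsets it was lower in Mo-MDSCs (log2 fold change -0.84, adjusted p = 0.000346, limma). Of the members with an E-box, Ctsd was lower (-1.05), Ctsa was higher (0.31) and Ctsl was not called (-0.28). The part of Tfeb in these levels was not tested. Tfec was at 11.5, 10.9 and 10.7 FPKM in PMN-MDSCs, 14.3 to 15.3 in Mo-MDSCs of WT mice and 25.4, 22.4 and 19.1 in those of DKO mice. No groups overlapped for Tfec, which was higher in Mo-MDSCs between the WT subsets (0.43, adjusted p = 0.00422, limma) and had a log2 fold change of 0.57 between genotypes that was not called (adjusted p = 0.127, limma). Tfe3 and Mitf were not called in either comparison, with log2 fold changes of -0.24 and 0.06 between subsets and of 0.03 and 0.30 between genotypes. With the replicate block Tfe3 was called lower in WT Mo-MDSCs (adjusted p = 0.00705, limma), and as TPM its log2 fold change was 0.21.

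Inhibitors of cysteine cathepsins showed the widest range. Of 10 genes 9 were tested between the WT subsets, with 6 lower and 1 higher in Mo-MDSCs, and as TPM 6 and 3 were. The higher one was Cst7, the gene of cystatin F, which is named here after its values were seen. Cst7 was at 0.882 ± 0.253 FPKM in PMN-MDSCs and 1.72 ± 0.292 FPKM in Mo-MDSCs of WT mice (log2 fold change 0.90, adjusted p = 0.0272, limma). Its call was lost without PMN-MDSC replicate 2 or 3 or Mo-MDSC replicate 1 or 3 (adjusted p from 0.0697 to 0.0929, limma), without variance moderation and with replicates 2 and 3 alone, and the gene was not tested where 1 FPKM was required in every sample. Stfa2l1, a stefin gene, was at 795, 692 and 1023 FPKM in PMN-MDSCs and at 2.69, 1.08 and 7.93 FPKM in WT Mo-MDSCs. Stfa1 was at 33.7 to 65.7 FPKM in PMN-MDSCs and at 0 to 1.85 FPKM in WT Mo-MDSCs, and Stfa2 at 12.7 to 30.2 FPKM in PMN-MDSCs and listed at 0 in all 3 WT Mo-MDSC samples. Stfa2, Stfa3, BC100530 and 2010005H15Rik were under 1 FPKM in every WT Mo-MDSC sample and passed the filter through PMN-MDSCs alone. A call for these genes could thus only be lower, and the count of lower calls in this list is partly set by the filter. Stefin genes are near-identical copies, among which reads may have been divided.

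Of 6 granule serine proteases that cathepsin C activates, 3 were tested, and 2 were higher in WT Mo-MDSCs. Prtn3 was at 3.63 ± 2.50 FPKM in PMN-MDSCs and 18.4 ± 4.29 in WT Mo-MDSCs (log2 fold change 2.55, adjusted p = 0.00756, limma), and Elane at 1.06 ± 0.738 and 5.00 ± 2.52 FPKM (2.30, adjusted p = 0.0321). The Elane call was lost without WT Mo-MDSC replicate 1 or 3 (adjusted p = 0.0877 and 0.0971, limma) and with no filter on low values, and neither gene was called without variance moderation or with replicates 2 and 3 alone. The third, Prss57, named after its values were seen and at 3.74 ± 1.33 and 2.31 ± 0.892 FPKM, was called lower with the replicate block (adjusted p = 0.00312, limma). In DKO all 3 tested had an unadjusted p below 0.05 and log2 fold changes from -1.66 to -0.88, and none was called. Of 7 genes of MHC class II and its invariant chain, H2-DMb1 was higher (0.52) and H2-DMb2 and H2-Eb1 lower (-0.48 and -0.43) in WT Mo-MDSCs, although as TPM the values of the last pair were -0.04 and 0.01. As TPM and after quantile normalization 2 of the 7 were higher and none lower. With the replicate block 2 of these genes were higher and 5 lower. Between genotypes the 7 had log2 fold changes from 0.14 to 0.58, with a median of 0.52 against -0.02 for all genes. Of the 7 genes, 5 had an unadjusted p below 0.05 and none was called. As TPM 2 of the 7 were called higher in DKO, and after quantile normalization 2 were. B cells also express these genes, and their part in the MHC class II values was not tested.

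**Figure D5:**
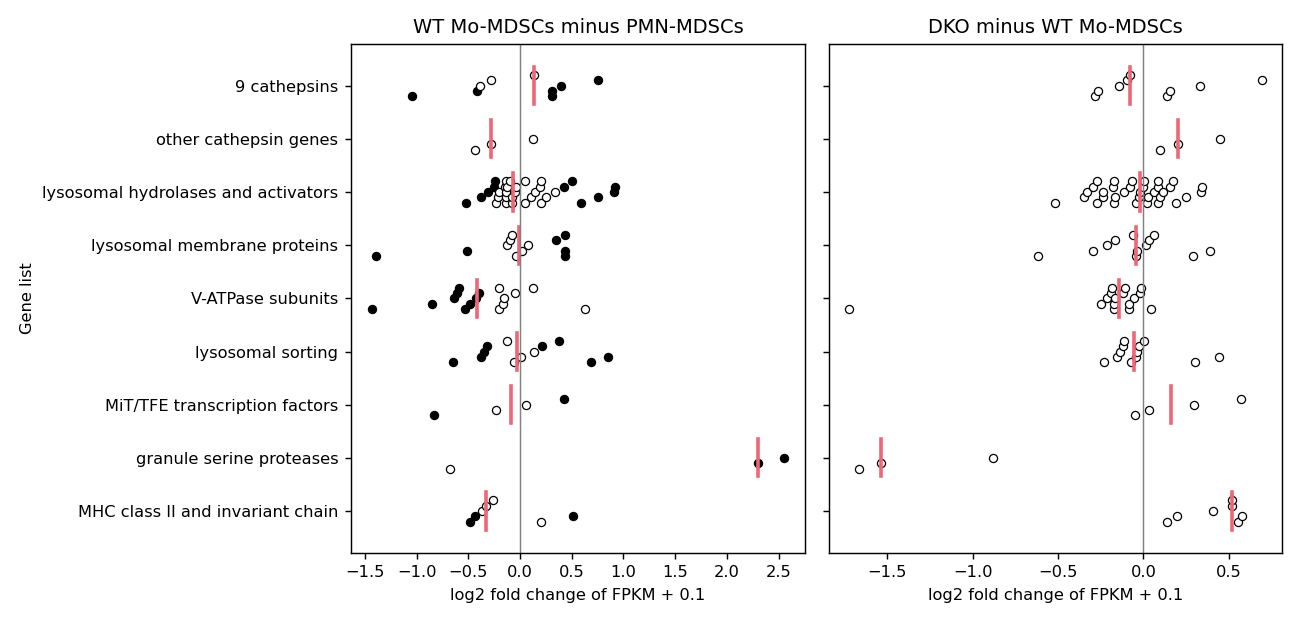
Log2 fold change of FPKM + 0.1 for each tested gene of the 9 cathepsins and of the lists of lysosomal and related genes, in WT Mo-MDSCs against PMN-MDSCs (left) and in DKO against WT Mo-MDSCs (right); points are genes, filled where the adjusted p is below 0.05, and red bars are medians. The inhibitors are not drawn, and their log2 fold changes between the WT subsets reach -8.11 with a median of -4.39. That median is partly set by the filter, which Stfa2, Stfa3, BC100530 and 2010005H15Rik passed through PMN-MDSCs alone. V-ATPase subunits have a median of -0.41 on the left, and no gene is called on the right.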

How the data were processed

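The data were expression values of splenic MDSCs in 9 samples, with groups and replicate numbers taken from the sample labels. The authors prepared TruSeq stranded mRNA libraries, sequenced 75-base single-end reads, mapped them to mm10 with TopHat2 2.0.13, Bowtie2 2.2.3 and SAMtools 0.1.19, and deposited FPKM values from Cuffnorm 2.2.1. The gene annotation, the strand setting and the scaling of libraries are not given in the sources used here. FPKM values are not counts, and the depth in reads is unknown, so precision is given by the standard errors.

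A gene entered a comparison if 3 or more of the 6 samples reached 1 FPKM. Such genes were fitted as log2(FPKM + 0.1) with limma 3.58.1 (lmFit, eBayes with a trend) in R 4.3.3, without covariates, and adjusted by the Benjamini-Hochberg method over all genes tested. A fold change on this scale understates that of low genes. Same-numbered samples of the WT subsets correlated in their deviations from the group means (r from 0.20 to 0.48 over genes), so a fit blocked by replicate number is given beside the results it changed. The pairing comes from the numbers in the labels, whose library numbers run in the same order. The fit was tested on simulated data. Log2 changes of 1.5 were recovered in 91.3% of the changed genes between subsets and 91.9% between genotypes, and those of 0.5 in 16.3% and 0%. For the subsets 196 of 11419 genes were given a change, whereas 18.5% and 20.6% of genes were called higher and lower in the data. For the genotypes 197 of 11422 genes were given a change of 1.5, whereas 0.166% and 0.0873% of genes were called higher and lower. The adjustment depends on the share of changed genes, so recovery at the shares seen in the data was not tested for either comparison.

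The members and lists were chosen with earlier results of these data known. The genes named were the members, Cdkn1a and Cdkn2a, the 3 largest changes called in each list, the measured other cathepsins and MiT/TFE factors, the 2 nearest genes of each member, and markers beside a member. Cst7, Prss57, Stfa3, BC100530, 2010005H15Rik, S100a8, S100a9 and Csf1r were named after their values had been seen. The alternatives tried were other pseudocounts and filters, TPM, median-centring and quantile normalization, no variance moderation, all 9 samples in 1 fit, replicates 2 and 3 alone, the block, and leaving out each sample. Leaving out replicate 2 or replicate 3 in both groups was added after the data had been seen. Python 3.11.15 with pandas 2.3.3 was used for tables.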

Additional observations from a re-analysis of the deposited data

How the results depend on the processing

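Ctsd and Ctss were called between the WT subsets under all 19 alternatives, Ctsh under 18, Ctsb under 11, Ctsa and Ctsc under 9 each, Ctsz under 2 and Ctse and Ctsl under 1 each, and no member was called between genotypes under any. Of 4 members called higher in WT Mo-MDSCs, 2 were called with no filter, without variance moderation, and without replicate 2 or replicate 3 in both groups, 1 with replicates 2 and 3 alone, and 2 to 3 when single samples were left out, and 5 as TPM and after quantile normalization. Of 2 called lower, the count was 1 as TPM, after quantile normalization, with replicates 2 and 3 alone and without replicate 2 or replicate 3 in both groups, 4 with the replicate block, and 1 to 2 when single samples were left out. For all list genes, 19 higher became 45 as TPM and 10 with replicates 2 and 3 alone or without replicate 3 in both groups, and 29 lower became 10 as TPM and 18 after quantile normalization, with replicates 2 and 3 alone and without replicate 3 in both groups. In DKO against WT, 3 list genes were called higher as TPM, 2 of MHC class II and 1 MiT/TFE factor. After quantile normalization 2 were, both of MHC class II, and 0 to 1 were lower when single samples were left out. The cause of these changes was not tested. Fits that leave samples out differ both in the number of samples and in which samples remain.

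As TPM the log2 fold changes of Ctsb, Ctse and Ctsl between subsets turned to 0.0281, 0.0583 and 0.164, and between genotypes those of Ctsc, Ctsh and Ctsz to 0.0607, 0.0116 and 0.0760, and after quantile normalization to 0.0856, 0.0235 and 0.135. Over all genes, TPM moved the median log2 fold change between subsets from 0.01 to 0.45 and the share of calls that were higher from 47.2% to 86.0%. With the replicate block the genotypes gave 0 members called; their same-numbered samples correlated between -0.07 and 0.35, so those numbers were not taken as pairs. The block changed no other call of a member. With 3 samples a group and log2 differences near 0.5 seldom recovered in the simulation, differences of that size between genotypes may have been missed.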
